A study of Homo sapiens with 6 samples.

Results

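DNA replication and S-phase genes were examined in SW780, a human bladder cancer cell line, with and without exposure to RC48. RC48 (disitamab vedotin) couples an antibody against the receptor ERBB2 to monomethyl auristatin E, a drug that blocks microtubules. The 45 genes were taken by symbol from the 16390 genes listed in every library, and cover origin licensing, helicase, polymerase, nucleotide supply and targets of the E2F transcription factors. RNA-seq was done on 3 libraries of SW780 cells named Control and 3 libraries of the same line exposed to RC48 at 25 µg/ml. The line carries no other named allele or agent in either group, and its cells are called stable in the study's methods, where what made them stable and the exposure time of this experiment are not given. No label says whether the replicates came from separate cultures, so the p-values measure only the spread between these libraries, which may be technical.

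A chromosome is copied once per cell cycle. In G1, the origin recognition complex with CDC6 and CDT1 loads the ring-shaped MCM helicase onto origins, and in S phase CDC45 and the GINS complex turn that ring into a working helicase. Primase and the polymerases then copy both strands, the clamp PCNA keeps the polymerases on the template, and FEN1 and LIG1 trim and join the fragments of the lagging strand. E2F factors, released from RB proteins late in G1 when cyclin E is active, drive transcription of most of these genes, so their RNA is known to follow the share of cells entering S phase. In bulk RNA, fewer cells in S phase and less of these RNAs per cell cannot be told apart.

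The start regions of 5 of the genes are shown because CDCA7, MCM6 and CDC6 are the ones that passed the test described below, E2F1 encodes the factor itself, and POLD1 had the highest fold change. Each is the 250 bases before the RefSeq start (GRCh38.p14), written 5′ to 3′ on the strand of the gene, with E2F words and CCAAT boxes in capitals on either strand. They lie at chr2:173354622-173354871 on the plus strand (CDCA7), chr2:135876444-135876693 on the minus strand (MCM6), chr17:40287629-40287878 on the plus strand (CDC6), chr20:33686386-33686635 on the minus strand (E2F1) and chr19:50384073-50384322 on the plus strand (POLD1).
CDCA7: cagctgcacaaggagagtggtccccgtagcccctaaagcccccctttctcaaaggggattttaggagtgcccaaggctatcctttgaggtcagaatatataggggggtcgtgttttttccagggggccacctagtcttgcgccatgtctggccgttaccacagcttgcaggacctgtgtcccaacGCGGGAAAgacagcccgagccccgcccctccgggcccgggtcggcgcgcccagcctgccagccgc
MCM6: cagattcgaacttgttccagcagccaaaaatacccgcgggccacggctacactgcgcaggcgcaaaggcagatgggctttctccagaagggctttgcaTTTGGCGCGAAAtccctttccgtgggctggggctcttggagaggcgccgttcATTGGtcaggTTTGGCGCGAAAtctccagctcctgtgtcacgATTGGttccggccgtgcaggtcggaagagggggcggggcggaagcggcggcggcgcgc
CDC6: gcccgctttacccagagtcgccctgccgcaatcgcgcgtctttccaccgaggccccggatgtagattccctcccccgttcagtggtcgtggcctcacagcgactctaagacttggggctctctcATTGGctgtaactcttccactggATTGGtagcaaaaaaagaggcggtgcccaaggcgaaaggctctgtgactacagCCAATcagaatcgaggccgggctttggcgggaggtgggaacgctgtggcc
E2F1: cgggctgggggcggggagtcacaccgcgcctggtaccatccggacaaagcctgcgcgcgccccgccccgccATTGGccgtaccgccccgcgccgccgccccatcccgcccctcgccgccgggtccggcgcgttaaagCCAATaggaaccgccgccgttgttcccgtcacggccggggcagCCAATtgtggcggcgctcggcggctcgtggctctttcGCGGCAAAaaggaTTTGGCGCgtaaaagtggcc
POLD1: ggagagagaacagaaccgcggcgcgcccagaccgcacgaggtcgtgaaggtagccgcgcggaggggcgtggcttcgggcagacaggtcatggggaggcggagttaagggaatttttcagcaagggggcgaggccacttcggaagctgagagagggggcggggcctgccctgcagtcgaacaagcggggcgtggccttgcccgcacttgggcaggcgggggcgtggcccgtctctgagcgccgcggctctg
The E2F words searched were TTTCCCGC, TTTGGCGC, TTTCGCGC and TTTGCCGC on both strands, of which TTTGGCGC and TTTCGCGC can overlap on opposite strands, as at both places in MCM6. MCM6 held such an overlapping pair starting 152 and 90 bases before the start, and CDCA7 held 1 word, 65 bases before it. In CDC6 the word TTTGGCGC began at base 8 after the start, outside the stretch shown, which holds 3 CCAAT boxes. E2F1 held words 33 and 20 bases before its start, and neither motif was found in the window of POLD1. Over the whole window of 250 bases before and 50 after the start, an E2F word was present in 22 of the 40 genes with an entry (55%), against 569 of 10695 promoters of all genes tested (5.3%). CCAAT or its complement was present in 23 of the 40 (57.5%), against 3952 of 10695 (37.0%). The genes were named in part as E2F targets, so the first share describes the choice. No entry was found for POLD3, MCM4, MCM5, GINS4 and CCNE2. The median log2 fold change was -0.44 over the 22 genes with an E2F word and -0.38 over the 18 without one.

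Estimated counts summed to between 16453233 and 17988030 per library. The spread was unequal between the groups. Over 11976 genes, the chi-square divided by its degrees of freedom is about 1 where 2 libraries differ by sampling noise alone. It was 1.44 between Control replicates 1 and 2, and 9.51 and 11.6 between these and Control replicate 3. Between RC48 libraries it was 22.3 to 136.0. RC48 replicate 1 stood apart, and in RC48 replicates 1 and 3 the change of a gene followed the GC content of its transcripts. Results are therefore given as fitted, without RC48 replicate 1, and with a correction for GC content. The correction removes from every library the departure of its trend of expression on GC content from the mean trend of all libraries. Levels are in CPM (counts scaled to library size after TMM normalization). The epithelial genes KRT7, KRT8, KRT18, KRT19, EPCAM and CDH1 summed to 11200 to 13000 CPM in Control and 13100 to 17300 in RC48. The 9 luminal urothelial genes summed to 880 to 896 CPM in Control and 784 to 973 in RC48, with GATA3, ERBB2, PPARG, FOXA1 and UPK1B all above 70 CPM in every library, and KRT20 and UPK3A at or below 2.03 and 0.547. The 5 basal urothelial genes summed to 521 to 528 CPM in Control and 438 to 523 in RC48, mostly CD44 and TP63. Of markers of other cell types, 7 of 10 leukocyte genes were listed and summed to 17.9 to 18.4 CPM in Control and 19.5 to 37.8 in RC48, mostly CD68, with PTPRC at or below 0.0607. Of 6 fibroblast genes, 5 were listed and summed to 444 to 475 CPM in Control and 444 to 558 in RC48, nearly all COL3A1 and LUM, with DCN and PDGFRB at or below 0.118. The 4 endothelial genes summed to 27.9 to 29.7 and 18.4 to 24.9 CPM, mostly PECAM1. Their part in the results was not tested.

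The comparison of RC48 with Control asks how the replication program differed after exposure to the conjugate. Of the 45 genes, 41 had a log2 fold change below 0 and 4 above it, with a median of -0.39, against 48.6% below 0 and a median of 0.02 over all 13055 genes tested. All 45 passed the filter on low counts, and their lowest count in any library was 110. Tested with edgeR (quasi-likelihood), 3 of the 45 passed an adjusted p of 0.05 over all genes, and all 3 fell (CDCA7, MCM6 and CDC6). Of all genes tested, 30 (0.230%) were called lower and 258 (1.98%) higher. The 95% interval of the fold change lay wholly below 0 in 27 genes, included 0 in 18 and lay wholly above it in none. An unadjusted p under 0.05 was found by edgeR in 27 of the 45, and in 2499 of all 13055 genes, in either direction. In 31 of the 45, every RC48 library was below every Control library (14.1% of all genes tested), and in 0 was every RC48 library above every Control library (17.4% of all genes tested). An exact permutation test on a single gene cannot go below a two-sided p of 0.1 with 3 libraries against 3.

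The number of calls differed with the libraries used, with the GC correction and with the tool. With the correction for GC content, 45 of 45 had a fold change below 0, the median was -0.45, and 29 fell (background 3.30% of 13000 genes). Without RC48 replicate 1, 45 of 45 were below 0 and 22 fell (background 2.21%). Of the genes given in full below, those that passed the threshold without it and not with it were CCNE2, DTL, POLE2, MCM10, POLD3, GINS1, POLE, E2F1 and UHRF1. Without RC48 replicate 2, 38 were below 0 and 24 fell (background 14.1%), among them CCNE2, DTL, POLE2, MCM10, POLD3, GINS1, RFC3, PCNA and TYMS. Leaving out RC48 replicate 3 or any 1 Control library left 0 calls by edgeR, with 21 to 25 of the 45 at an unadjusted p under 0.05. Of the 13172 to 13218 genes tested in these fits, only 2 to 5 were called lower. Of the same genes, 1316 to 1515 had an unadjusted p under 0.05, in either direction. DESeq2 called 18 lower on all 6 libraries (background 1.33%).

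**Figure D1:**
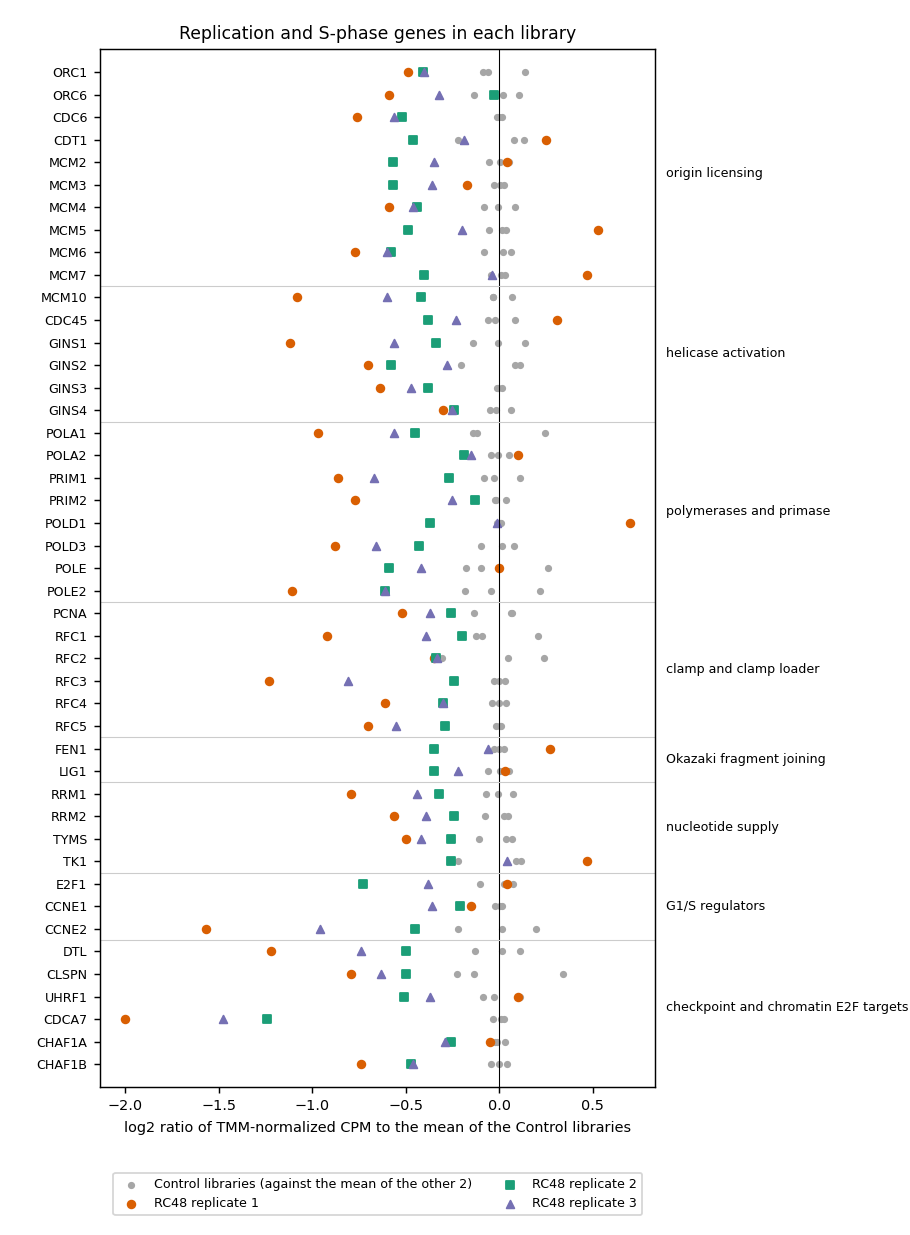
Log2 ratio of CPM to the mean of the Control libraries (x axis) for the 45 genes (rows, grouped by role) in each of the 6 libraries (points; each Control library against the mean of the other 2). RC48 replicate 2 lies in a narrow column from -1.24 to -0.03, RC48 replicate 1 spreads from -2.0 to 0.70, and CDCA7 is lowest in all 3.

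Origin licensing held 10 genes, of which 8 had a fold change below 0 and 2 fell, with a median of -0.33. MCM6, a subunit of the MCM ring whose promoter holds the double E2F words above, was at 228.5, 224.1 and 213.8 CPM in Control and 129.8, 148.6 and 146.8 in RC48 replicates 1, 2 and 3. The groups did not overlap, and the log2 fold change was -0.65 ± 0.11 (SE, n = 3 per group), with an adjusted p of 0.031. With the GC correction MCM6 was at -0.43 (adjusted p 0.0483). CDC6, the ATPase that loads the ring, was at 138.9, 139.6 and 140.5 CPM in Control and 82.2, 97.3 and 94.6 in RC48. The Control libraries of CDC6 spread by under 2 CPM and every RC48 library lay well below them. Its log2 fold change was -0.61 ± 0.12 (SE, n = 3 per group) and its adjusted p was 0.0429.

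MCM7 and MCM5, 2 further subunits of the ring, were above Control in 1 library. MCM7, the most abundant of the group in CPM, was at 326.4, 330.1 and 318.7 CPM in Control and 450.4, 245.7 and 316.3 in RC48. RC48 replicate 1 was above all Control libraries, and replicates 2 and 3 were below them. The log2 fold change of MCM7 was 0.05 ± 0.21 (SE, n = 3 per group), with a 95% interval from -0.43 to 0.54 and an adjusted p of 0.873, and without RC48 replicate 1 it was -0.22. MCM5 was at 165.6, 164.1 and 159.0 CPM in Control and 235.6, 115.7 and 142.2 in RC48, the same pattern. Its log2 fold change was 0.01 ± 0.24 (SE, n = 3 per group), with an adjusted p of 0.975, and leaving out RC48 replicate 1 gave -0.34 and the GC correction -0.32. The other subunits gave -0.27 for MCM2, -0.36 for MCM3 and -0.50 for MCM4. MCM7 shares exon sequence on the opposite strand with AP4M1 and MCM2 with TPRA1, and strand use in counting is not given in the sources used here.

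The rest of the licensing group was ORC1 at -0.43, ORC6 at -0.30 and CDT1 at -0.10. ORC6, a subunit of the origin recognition complex, was the 1 gene of the 45 that was not below the Control range in RC48 replicate 2, at 19.6 CPM against a lowest Control of 18.8. With the GC correction 7 of the 10 fell, among them CDC6 (-0.50, adjusted p 0.00696), MCM4 (-0.50, adjusted p 0.00641), MCM2 (-0.56, adjusted p 0.00435) and CDT1 (-0.45, adjusted p 0.0143). ORC6, MCM5 and MCM7 did not pass the threshold with it. For the counts of this and the later roles, 48.6% of all genes were below 0 as fitted. With the correction 3.30% of all genes were called lower.

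Helicase activation held 6 genes, all below 0, with a median of -0.50 and no call. MCM10, which helps to start the helicase, was at 42.4, 42.4 and 44.5 CPM in Control and 20.3, 32.2 and 28.3 in RC48. The groups did not overlap, and RC48 replicate 1 was lowest. The log2 fold change of MCM10 was -0.68 ± 0.18 (SE, n = 3 per group), with an adjusted p of 0.132. GINS1, a subunit of GINS and the most abundant of the group in CPM, was at 137.7, 147.1 and 129.4 CPM in Control and 63.6, 109.1 and 93.3 in RC48. It too did not overlap, with a log2 fold change of -0.64 ± 0.20 (SE, n = 3 per group) and an adjusted p of 0.171. The other GINS subunits gave -0.51 (GINS2), -0.49 (GINS3) and -0.27 (GINS4). CDC45 gave -0.07, with an interval from -0.51 to 0.37, and was above the Control range in RC48 replicate 1 at 65.2 CPM and below it in the other 2. With the GC correction MCM10 and all 4 GINS genes fell, from -0.68 (GINS2) to -0.39 (GINS4), and CDC45 (-0.19, adjusted p 0.405) did not pass. GINS2 shares exon sequence on the opposite strand with GSE1.

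Polymerases and primase held 8 genes, 7 below 0, with a median of -0.47 and no call. POLE2, the second subunit of polymerase epsilon, was at 16.1, 14.3 and 13.4 CPM in Control and 6.68, 9.54 and 9.52 in RC48. Every RC48 library was below every Control library, and the log2 fold change was -0.76 ± 0.18 (SE, n = 3 per group), with an adjusted p of 0.0962. POLD3, a subunit of polymerase delta, was at 57.6, 60.7 and 62.5 CPM in Control and 32.7, 44.7 and 38.1 in RC48. Its groups did not overlap, and the log2 fold change was -0.65 ± 0.15 (SE, n = 3 per group), with an adjusted p of 0.0807.

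POLE, the catalytic subunit of polymerase epsilon, was at 135.9, 141.3 and 166.0 CPM in Control and 148.0, 98.4 and 110.2 in RC48. RC48 replicate 1 lay within the Control range and the other 2 below it. For POLE the log2 fold change was -0.31 ± 0.18 (SE, n = 3 per group), with an adjusted p of 0.315. Leaving out RC48 replicate 1 gave -0.51 for POLE (adjusted p 0.0184), and leaving out replicate 2 gave -0.20 (adjusted p 0.367). POLD1, the catalytic subunit of polymerase delta and the highest of the 45, was at 122.2, 123.4 and 123.3 CPM in Control and 200.1, 95.3 and 122.5 in RC48. RC48 replicate 1 was far above the Control libraries, replicate 2 below them and replicate 3 within their range. For POLD1 it was 0.18 ± 0.25 (SE, n = 3 per group), with an interval from -0.40 to 0.76 and an adjusted p of 0.644, and leaving out RC48 replicate 1 gave -0.18 and the GC correction -0.19. The primase subunits gave -0.58 (PRIM1) and -0.36 (PRIM2), and the subunits of polymerase alpha -0.64 (POLA1) and -0.07 (POLA2). POLA1 (-0.42), POLD3 (-0.50) and POLE (-0.54) fell with the GC correction, and PRIM2 was nearest to 0 of all 45, at -0.07. POLE2, the gene with the lowest GC content of the 45, went from -0.76 to -0.36 with the correction. PRIM1 shares exon sequence on the opposite strand with HSD17B6.

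**Figure D2:**
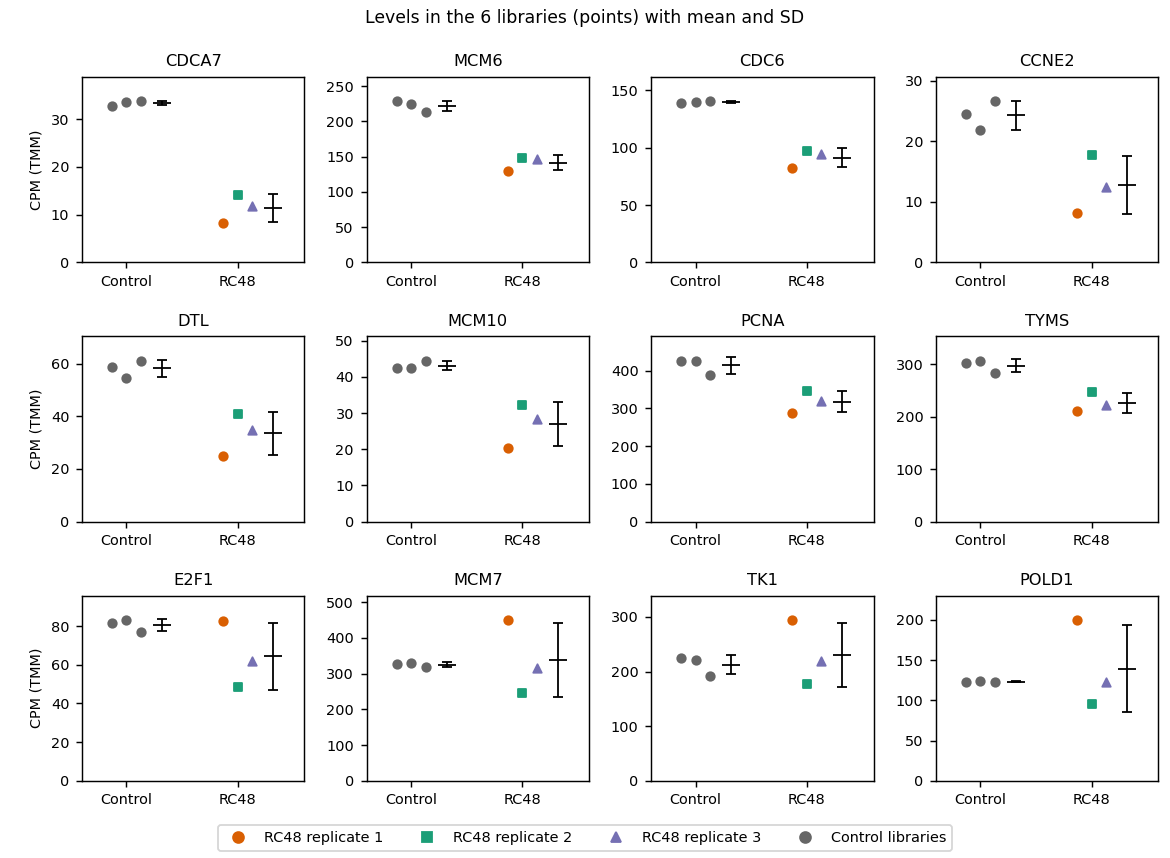
CPM in each library (y axis, from 0) of 12 of the genes, with points for single libraries and bars for the mean and SD (n = 3 per group). CDCA7, MCM6 and CDC6 are tight in Control and do not overlap with RC48, and in MCM7, TK1 and POLD1 RC48 replicate 1 lies above Control while replicate 2 lies below.

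The clamp and its loader held 6 genes, all below 0, with a median of -0.43 and no call. In all 6 every RC48 library was below every Control library, as in 14.1% of all genes tested. The median GC content of the 6 was 44.9%, and of all genes under 45% GC the same held in 1070 of 4075. PCNA, the sliding clamp, was at 426.9, 426.1 and 388.7 CPM in Control and 288.9, 346.1 and 319.7 in RC48. It had the highest length-normalized level of the 45 in Control, with a mean deposited TPM of 754.8, against 402.6 for TYMS, the next, and 17.1 for GINS4, the lowest. PCNA gave a log2 fold change of -0.38 ± 0.12 (SE, n = 3 per group), with an adjusted p of 0.173, and it was -0.26 with the GC correction (adjusted p 0.0993). RFC3, a subunit of the loader, was at 80.1, 79.0 and 78.0 CPM in Control and 33.5, 66.9 and 45.1 in RC48. The RC48 libraries spread 2-fold among themselves, all below Control, and the log2 fold change was -0.70 ± 0.23 (SE, n = 3 per group), with an adjusted p of 0.193. The other loader subunits gave -0.47 (RFC1), -0.34 (RFC2), -0.40 (RFC4) and -0.50 (RFC5). RFC2, RFC3 and RFC5 fell with the GC correction, at -0.49, -0.54 and -0.59. RFC4 shares exon sequence on the opposite strand with EIF4A2.

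Okazaki fragment joining held 2 genes. FEN1, the flap nuclease, was at 203.2, 205.5 and 200.4 CPM in Control and 245.5, 158.8 and 194.4 in RC48, above Control in replicate 1 and below it in the other 2. Its log2 fold change was -0.03 ± 0.16 (SE, n = 3 per group), with an adjusted p of 0.927, and TMEM258 shares exon sequence with it on the opposite strand. LIG1, the ligase, gave -0.17, and it fell with the GC correction (-0.46, adjusted p 0.0111), while FEN1 (-0.21, adjusted p 0.228) did not pass.

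Nucleotide supply held 4 genes, 3 of them below 0, with a median of -0.39 and no call. TYMS, thymidylate synthase, was at 301.7, 306.7 and 282.6 CPM in Control and 210.0, 247.5 and 221.4 in RC48. The groups did not overlap, and the log2 fold change was -0.39 ± 0.11 (SE, n = 3 per group), with an adjusted p of 0.158. Reads of TYMS can be split with ENOSF1 and TYMSOS, which share its exons on the opposite strand, and its estimated count was not whole in 6 of 6 libraries. TK1, the salvage enzyme thymidine kinase, was at 224.5, 222.0 and 192.0 CPM in Control and 294.9, 177.8 and 218.8 in RC48. RC48 replicate 1 was above and replicate 2 below the Control range. TK1 gave a log2 fold change of 0.11 ± 0.19 (SE, n = 3 per group), with an interval from -0.32 to 0.55 and an adjusted p of 0.699, and it was -0.11 without RC48 replicate 1. The subunits of ribonucleotide reductase, which makes deoxynucleotides, gave -0.50 (RRM1) and -0.39 (RRM2). TYMS (-0.52, adjusted p 0.0316) and RRM1 (-0.30, adjusted p 0.049) fell with the GC correction, and RRM2 (-0.29, adjusted p 0.0619) and TK1 (-0.23, adjusted p 0.132) did not pass.

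Of the 3 regulators of the step from G1 to S, CCNE2 had the lowest fold change as fitted, and E2F1 had the lowest with the GC correction. CCNE2, one of the cyclins E, was at 24.5, 21.9 and 26.6 CPM in Control and 8.14, 17.8 and 12.5 in RC48. The groups did not overlap, but the RC48 libraries differed by more than 2-fold among themselves. Its log2 fold change was -0.92 ± 0.27 (SE, n = 3 per group), with an adjusted p of 0.154. CCNE2 passed the threshold in 9 of 17 alternative analyses. These 9 reuse the same libraries, and called from 331 (replicate block) to 8018 (voom with quality weights) of all 13055 genes. With the GC correction CCNE2 was at -0.59 (adjusted p 0.0133). CCNE2 shares exon sequence on the opposite strand with INTS8. E2F1 was at 81.6, 83.3 and 76.9 CPM in Control and 82.9, 48.5 and 62.0 in RC48. RC48 replicate 1 was within the Control range and the other 2 below it, and the log2 fold change was -0.32 ± 0.19 (SE, n = 3 per group), with an adjusted p of 0.336. For E2F1, the value was -0.55 if RC48 replicate 1 was left out (adjusted p 0.016) and -0.16 if replicate 2 was (adjusted p 0.442). E2F1 transcripts are among the most GC-rich of the 45, at 62.5%, and with the GC correction E2F1 fell by 0.67 on the log2 scale (adjusted p 0.0017). CCNE1 gave -0.24, and -0.30 with the correction (adjusted p 0.0878).

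The checkpoint and chromatin group held 6 genes, all below 0, with the lowest median of the 8 roles as fitted, -0.60. With the GC correction its median was -0.54, against -0.59 for the regulators of the step from G1 to S and -0.56 for helicase activation. CDCA7, a chromatin factor needed for DNA methylation in some repeats, was at 32.8, 33.5 and 33.7 CPM in Control and 8.26, 14.0 and 11.9 in RC48. The highest RC48 library was far below the lowest Control library. The log2 fold change of CDCA7 was -1.55 ± 0.20 (SE, n = 3 per group), a level 65.8% lower, with an adjusted p of 0.00847. Leaving out RC48 replicate 1, the library that stood apart, gave -1.37, and the GC correction gave -1.43 (adjusted p 0.00018). DTL, which marks CDT1 for destruction in S phase, was at 58.6, 54.7 and 61.2 CPM in Control and 24.8, 41.0 and 34.9 in RC48. Its groups did not overlap, and the log2 fold change was -0.79 ± 0.19 (SE, n = 3 per group), with an adjusted p of 0.0951.

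UHRF1, which brings the maintenance DNA methyltransferase to copied DNA, was at 111.1, 114.4 and 121.8 CPM in Control and 124.2, 81.4 and 89.7 in RC48. RC48 replicate 1 was above all Control libraries and the other 2 were below them. The log2 fold change of UHRF1 was -0.23 ± 0.17 (SE, n = 3 per group), with an adjusted p of 0.403. The same gene was at -0.44 when RC48 replicate 1 was dropped (adjusted p 0.0226) and at -0.12 when replicate 2 was (adjusted p 0.582). CLSPN, a mediator of the replication checkpoint, gave -0.64, and the subunits of the histone chaperone CAF-1 gave -0.20 (CHAF1A) and -0.55 (CHAF1B). All 6 of the group fell with the GC correction, the 5 beside CDCA7 from -0.55 (DTL and CHAF1B) to -0.44 (CLSPN).

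**Figure D3:**
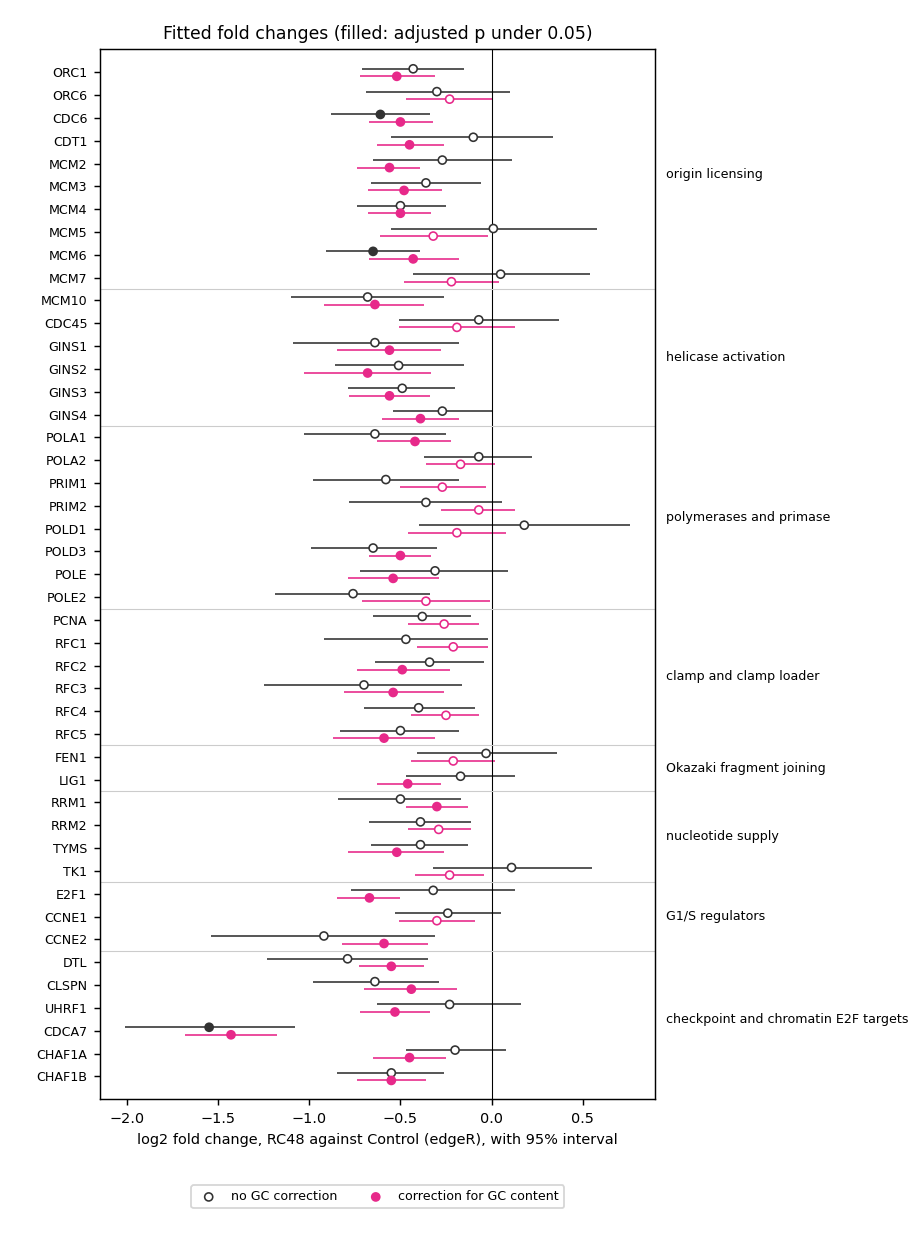
Fitted log2 fold change of RC48 against Control (x axis) with its 95% interval for the 45 genes (rows), without (dark) and with (pink) the correction for GC content, filled where the adjusted p is under 0.05. Filled points number 3 without and 29 with the correction, and with it all 45 lie below 0.

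Much of the scatter between the genes ran with GC content. In RC48 replicate 1, 32 of the 45 were below the lowest Control library and 10 above the highest, against 43.6% and 45.6% of all genes. In RC48 replicates 2 and 3, 44 and 43 were below the lowest and 0 above the highest, against 29.1% and 38.4% of all genes below and 33.4% and 38.5% above. The median log2 ratio to the Control mean was -0.59, -0.38 and -0.39 in the 3 libraries, and the SD over the 45 genes was 0.59, 0.19 and 0.26. Across the 45 genes, which share the library and its depth, Spearman's rho of the log2 ratio with GC content was 0.867 in RC48 replicate 1, -0.11 in replicate 2 and 0.712 in replicate 3. Over all 13000 genes with a GC content it was 0.738, -0.0147 and 0.567. After the correction the SD over the 45 was 0.33, 0.19 and 0.21, and the medians were -0.41, -0.44 and -0.44.

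Split by GC content, the 14 genes under 45% had a median log2 fold change of -0.65, the 20 genes between 45% and 55% -0.39, and the 11 genes over 55% -0.17. The same ranges gave -0.29, 0.02 and 0.29 over all genes tested. The 45 were below all genes in each range, and with the correction their medians were -0.42, -0.49 and -0.45, against -0.03, -0.02 and -0.01. As fitted, every RC48 library was below every Control library in 14, 16 and 1 of the genes in these ranges. Over all genes tested this held in 1070 of 4075, 644 of 4552 and 123 of 4373. With the correction it held in 42 of the 45 and in 2549 of all 13000 genes. The 4 genes with a fold change above 0 (MCM5, MCM7, POLD1 and TK1) all belong to the range over 55%. RC48 replicate 2, which had no such trend, held every one of the 4 below the Control range. What gave the trend in the other 2 libraries was not tested.

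**Figure D4:**
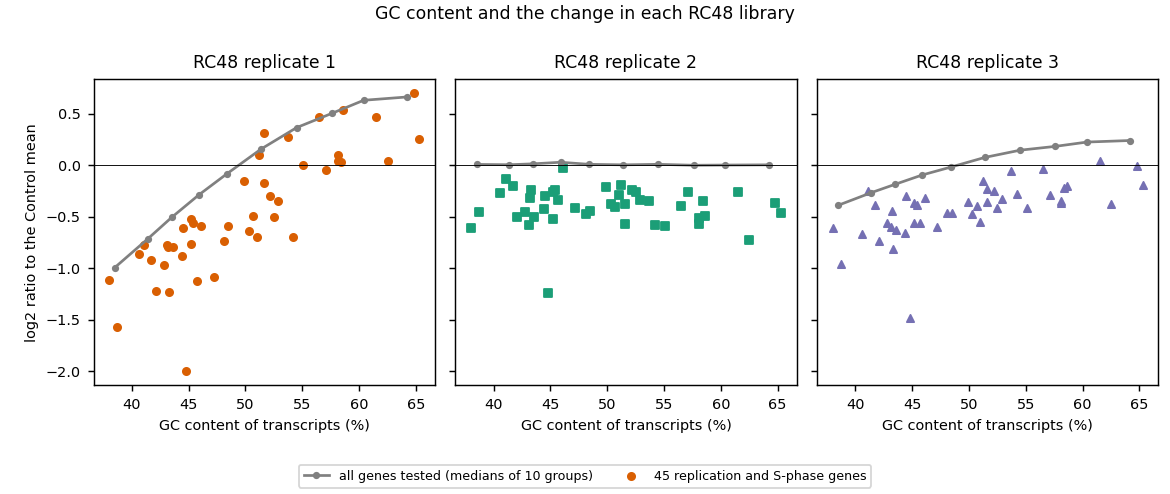
Log2 ratio to the Control mean (y axis) against the GC content of transcripts (x axis, %) for the 45 genes (coloured points) and for all genes tested (grey, medians of 10 groups of 1300 genes), 1 panel per RC48 library. The grey line rises from -0.993 to 0.661 in replicate 1 and from -0.389 to 0.239 in replicate 3 and is flat in replicate 2, where the points form a band below it.

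Other genes of the same process were counted from 4 further lists of 74 genes, all of them tested. Of these, 63 had a fold change below 0, 1 fell and 0 rose past the threshold, with a median of -0.38. The 1 gene was E2F8, an E2F factor that represses transcription, at 10.2, 10.5 and 11.3 CPM in Control and 4.31, 5.94 and 6.12 in RC48. The groups did not overlap, and its log2 fold change was -0.97 ± 0.18 (SE, n = 3 per group), with an adjusted p of 0.0395. By list, 25 of 31 other replication genes were below 0 (median -0.37), 9 of 12 other nucleotide genes (median -0.28), 13 of 15 other E2F and RB genes (median -0.48) and 16 of 16 other S-phase chromatin genes (median -0.53). The median GC content of the 74 was 44.5%. Of all genes tested, 48.6% were below 0, and of those under 45% GC 85.1%. With the GC correction 63 of the 74 were below 0, against 53.4% of all genes. By list, in the order above, these were 28, 9, 13 and 13. With the correction 22 of the 74 fell and 1 rose, with a median of -0.31. Of all genes, 3.30% were called lower and 4.17% higher. The gene that rose was SAMHD1 (0.73, adjusted p 0.0204), which degrades deoxynucleotides. The lowest adjusted p-values among those that fell were those of E2F2 (-0.70, adjusted p 0.00402) and E2F8 (-0.93, adjusted p 0.00474).

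Mitotic genes, which peak later in the cycle, gave a median of -0.48 over 30 genes, with 27 below 0 and 0 calls by edgeR. Their median GC content was 45.2%. Of all genes tested, 48.6% were below 0, with 85.1% under 45% GC and 47.6% at 45% to 55% GC. Only 30 of all 13055 were called lower. The median log2 ratio in RC48 replicates 1, 2 and 3 was -0.89, -0.22 and -0.40 for the mitotic genes, -0.66, -0.24 and -0.40 for the 74 other S-phase genes and -0.59, -0.38 and -0.39 for the 45 replication genes. The 45 were thus lowest in replicate 2 alone, which had no GC trend. After the GC correction the same medians were -0.46, -0.27 and -0.24 for the mitotic genes, -0.35, -0.28 and -0.30 for the 74 and -0.41, -0.44 and -0.44 for the 45. With the GC correction the mitotic median was -0.31, 30 of 30 were below 0 and 7 fell, the lowest adjusted p being that of MKI67 (-0.63, adjusted p 0.0284), the antigen Ki-67. Of all genes, 53.4% were below 0 and 3.30% were called lower with the correction. Whether the lists differ from each other was not tested.

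**Figure D5:**
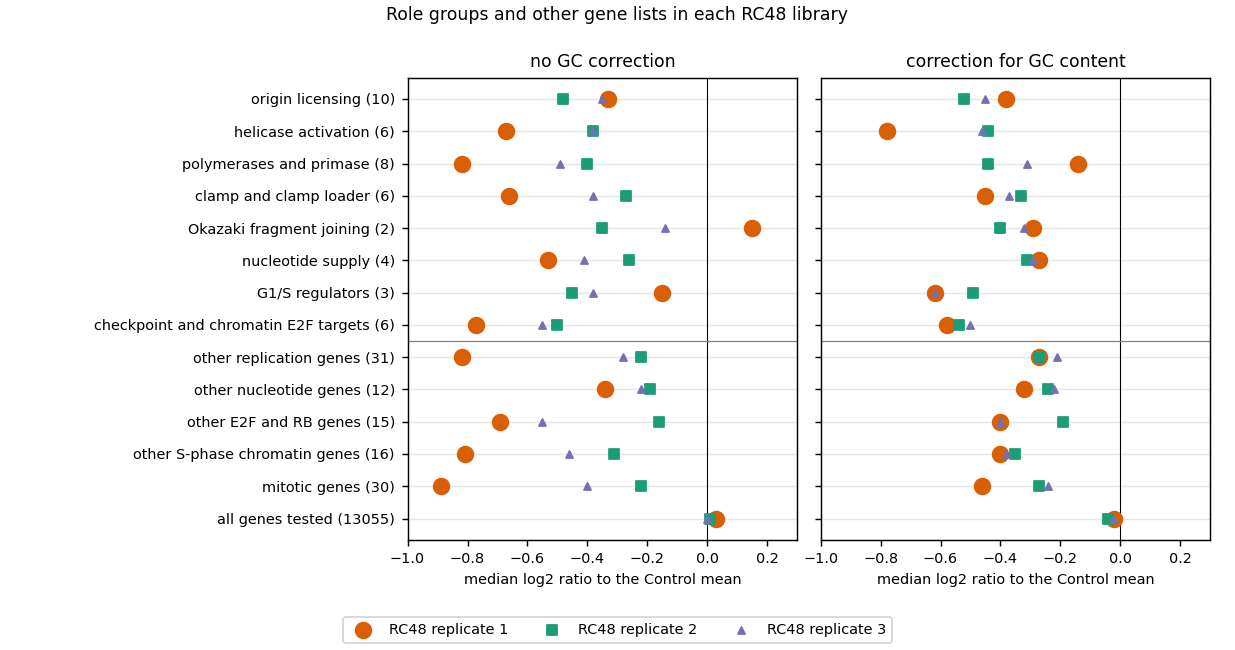
Median log2 ratio to the Control mean (x axis) of the 8 role groups, 5 other gene lists and all genes tested (rows, with the number of genes) in each RC48 library (points), without and with the correction for GC content. Without it, replicate 1 lies apart from the other 2 in most rows, and with it all points of the gene groups lie below 0, from -0.78 to -0.14.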

How the data were processed

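RNA of SW780 cells was sequenced by BGI in 6 libraries, 3 Control and 3 RC48. The authors used SOAPnuke to filter reads, Bowtie2 to map them to reference gene sequences and RSEM to count them, and the submitters' processing notes give the build hg38. Versions and annotation are not given in the sources used here. The deposited values are estimated counts per gene without normalization, of which 11.7% to 15.0% per library are not whole, and TPM, which the authors normalized for gene length and library size. Deposited TPM of 5 libraries was used, and that of RC48 replicate 2 was not used here.

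Estimated counts were rounded, filtered with filterByExpr (minimum count 10), scaled by TMM and compared without covariates in edgeR (quasi-likelihood), with Benjamini-Hochberg adjustment over all genes at 0.05 (R 4.3.3, edgeR 4.0.16). Adjusted p-values in the text are from edgeR unless another tool is named, as are the 95% intervals. RC48 against Control was the comparison, grouped by sample title, and the design, which assumed this unit, was kept. Log2 ratios of single libraries used CPM with 0.1 added. GC content was the median over a gene's transcripts in GENCODE release 29, known for 99.4% of genes. The offset of its correction was each library's loess trend (span 0.3) less the mean trend of all libraries. Alternatives were DESeq2 1.42.0, no filter, a filter of 10 counts in each library, library sizes alone, RLE size factors, limma 3.58.1 on log2(TPM+1) and log2(TPM+0.1), voom with sample quality weights, a replicate block, the GC correction with and without that block, and each library left out in turn. Promoters were RefSeq's (GRCh38.p14). Python 3.11.15, numpy 2.4.6, pandas 2.3.3, scipy 1.17.1 and matplotlib 3.10.9 were used.

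All values are given for genes that passed the threshold, the 8 lowest and 4 highest fold changes, and the most abundant gene of each role in CPM, 20 in all. Of the further lists, at most 3 genes past the threshold with or without the GC correction were named. The genes and lists were chosen with earlier results of these data known. The depth of 16453233 to 17988030 counts gave the genes 110 counts or more in every library. Of the 45, 5 had an estimated count that was not whole in at least 1 library and 8 share exon sequence with a gene on the opposite strand.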

Additional observations from a re-analysis of the deposited data

How the results depend on the processing

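Of 765 values (45 genes in 17 alternatives), 541 kept their direction and side of the threshold, 181 passed it only in the alternative, 17 lost it and 26 changed sign, in 7 genes. The median over the 45 genes (-0.39) was -0.62 and -0.63 in limma on TPM with 1 and 0.1 added (5 libraries) and -0.46 to -0.38 with a library left out. The number of the 45 called (3) was 29 with the GC correction, 23 with the replicate block and GC correction, 18 in DESeq2, 28 and 19 in limma on TPM with 1 and 0.1 added, 41 in voom with quality weights, and 0 to 24 with a library left out. Over all genes, 288 calls became 971, 676, 676, 2711, 1311 and 8018 in the same order. They were 68 to 3726 with a library left out (68 without Control replicate 3, 3726 without RC48 replicate 2). Genes called lower numbered 30 as fitted, and 429, 271, 188, 1971, 894 and 4046 in the same order, of 13000 to 14145 tested. Voom gave RC48 replicates 1, 2 and 3 weights of 0.0968, 0.262 and 7.64, so its RC48 mean rests mostly on replicate 3. What made the number of calls differ was not tested.

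Same-numbered libraries did not deviate together (correlations 0.026, -0.161 and -0.0147), and no library correlated best with its own number. With 3 libraries per group, this cannot exclude that the numbers mark pairs. The replicate block called 2 of the 45 (CCNE2 and CDCA7) and 331 of all genes. CDCA7 lost its call only where a Control library or RC48 replicate 3 was left out (adjusted p 0.0599 to 0.0862 by edgeR, in 4 fits of 17). MCM6 lost it in the same 4 fits and in both with the block, and CDC6 in the same 4, with the block, with library sizes alone (adjusted p 0.0539) and with no filter (adjusted p 0.0501).

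Signs changed in few genes. With a library left out, CDC45 ranged from -0.31 to 0.06, CDT1 from -0.33 to 0.04, FEN1 from -0.21 to 0.11, MCM5 from -0.34 to 0.21, MCM7 from -0.22 to 0.24, POLD1 from -0.18 to 0.39 and TK1 from -0.11 to 0.27, the highest being without RC48 replicate 2 and the lowest without RC48 replicate 1 in each of the 7. MCM5 was at -0.01 in DESeq2, -0.00054 with a filter of 10 counts in each library, -0.32 with the GC correction, -0.07 with library sizes alone, -0.0026 with no filter, -0.05 with the block, -0.33 with the block and GC correction and -0.21 in voom, and -0.01 without Control replicate 3. MCM7 was at -0.22, -0.02, -0.23 and -0.05 with the GC correction, library sizes alone, the block and GC correction, and voom. POLD1 was at -0.19, -0.20 and -0.01, and TK1 at -0.23, -0.23 and -0.02, with the GC correction, the block and GC correction, and voom. On the same 6 libraries, 18 of the 45 intervals included 0 without and 7 with the GC correction. Over all genes, edgeR gave an unadjusted p under 0.05 in 2499 of 13055 without and 3396 of 13000 with it, in either direction.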
